A study of Mus musculus with 15 samples.

Results

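The genes described here are homeobox, paired-box and T-box transcription factors other than those of the Hox clusters. They were chosen by symbol alone, among them genes whose symbol begins with the letters of *Pax8*, *Lhx6*, *Dlx4*, *Six4*, *Irx5*, *Msx2*, *Tbx15*, *Otx2*, *Pitx1*, *Meis1*, *Pbx3*, *Cdx1*, *Emx2* or *Barx1* directly followed by a digit, and those written in the forms of *Nkx2-3* or *Pou2f1*. This gave 73 members in 17 families among the 17454 genes of the RNA-seq table of E10.5 yolk sac (YS) erythro-myeloid progenitors (EMPs). The families included Pou (10 members), Tbx (10), Nkx (8), Lhx (6), Pax (6), *Six4* and its relatives (5), Irx (4), Pbx (4), Dlx (3), Emx (3), Meis (3), Msx (3), Cdx (2), Otx (2), Pitx (2) and Barx (1).

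EMPs were sorted as LIN- SCA1- KIT+ CD16/32+ CD41+ cells from individual YS at E10.5, of C57BL/6 mice or mice backcrossed to them, in 15 libraries. All embryos carried *Ezh2* with floxed alleles (Ezh2fl/fl). Tie2-Ezh2-KO EMPs (5 libraries) also carried *Tie2*-Cre (CreTg/+), which is active in endothelium, and Vav-Ezh2-KO EMPs (5 libraries) carried *Vav*-iCre (CreTg/+), which is active from the onset of the hematopoietic stage. Tie2-Ezh2-WT (3 libraries) and Vav-Ezh2-WT (2 libraries) had the same alleles without Cre, and these 5 libraries together are called WT. The 2 knockouts were therefore compared with the same WT libraries.

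Factors of these families bind DNA through a homeodomain, a paired domain or a T-box and fix the identity of organs and cell types in the embryo, from limb and heart to brain and kidney. Many of their genes are textbook targets of Polycomb repressive complex 2 (PRC2), whose methyltransferase Ezh2 keeps them silent in cells of other lineages. In blood progenitors the family members known best are *Meis1* and the Pbx genes, whose proteins bind DNA together with Hox proteins, while Cdx proteins act upstream of the Hox genes in the embryo.

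The libraries carried the markers of EMPs. All 15 genes of an EMP list had reads in every library, and their summed level was 1393 to 1578 RPKM (reads scaled to the length of the gene and the reads of the library) in Tie2-Ezh2-KO, 1401 to 1513 RPKM in WT and 1254 to 1454 RPKM in Vav-Ezh2-KO EMPs. None of these 15 genes differed from WT with limma in either knockout at an adjusted p under 0.05, the threshold for a call below; *Gfi1b* was called higher in Tie2-Ezh2-KO than in Vav-Ezh2-KO EMPs. *Ezh2* itself was at 24.8 to 29.5 RPKM in the Tie2-Ezh2-KO libraries, below the 30.1 to 42.0 RPKM of the WT libraries, and at 33.7 to 42.4 RPKM in the Vav-Ezh2-KO libraries. These *Ezh2* values cover the whole gene and do not separate the floxed exons. The study measured the deleted exon by quantitative PCR and reports its loss in EMPs of both knockouts.

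Most members were silent or nearly silent in EMPs. Of the 73 members, 7 had no read in any library. These included *Emx1*, *Irx1*, *Lhx8*, *Pax2*, *Tbx2* and *Lhx2*, the last of which is known in fetal liver hematopoiesis. Another 35 had reads but never reached 0.2 RPKM, and 31 exceeded 0.2 RPKM in at least 1 library and were tested. Of those 31, 17 exceeded it in Tie2-Ezh2-KO libraries and nowhere else (748 of 14394 among all genes), among them *Msx2*, *Tbx15*, *Tbx5* and *Six4*, described below. A gene that enters a test in this way had to be higher in Tie2-Ezh2-KO EMPs, so counts over the tested members are given here as descriptions. Reads in all 15 libraries were found for 9 members, and 6 members had a median above 1 RPKM.

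More members were detected in Tie2-Ezh2-KO EMPs than in the other groups. Tie2-Ezh2-KO replicates 7, 9, 11, 13 and 17 had reads of 30, 33, 25, 36 and 37 members. Tie2-Ezh2-WT replicates 4, 10 and 12 had reads of 21, 17 and 20 members, Vav-Ezh2-WT replicates 4 and 6 of 19 and 17, and Vav-Ezh2-KO replicates 1, 9, 10, 26 and 28 of 20, 17, 18, 18 and 22. The 5 Tie2-Ezh2-KO libraries thus all lay above the other 10. Depth did not follow this order: the deepest library, Tie2-Ezh2-WT replicate 12 with 41025074 reads on genes, had 20 members, and Tie2-Ezh2-KO replicate 11 with 14818723 reads had 25. When every library was reduced to the 10407398 reads of the shallowest, the expected number of members, as mean and SD of 5 libraries, was 30.2 ± 4.16 for Tie2-Ezh2-KO, 17.3 ± 2.42 for WT and 17.4 ± 1.42 for Vav-Ezh2-KO EMPs. Over all genes, the same reduction left 13637 ± 296 genes for Tie2-Ezh2-KO, 13163 ± 205 for WT and 13183 ± 150 for Vav-Ezh2-KO EMPs.

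**Figure D1:**
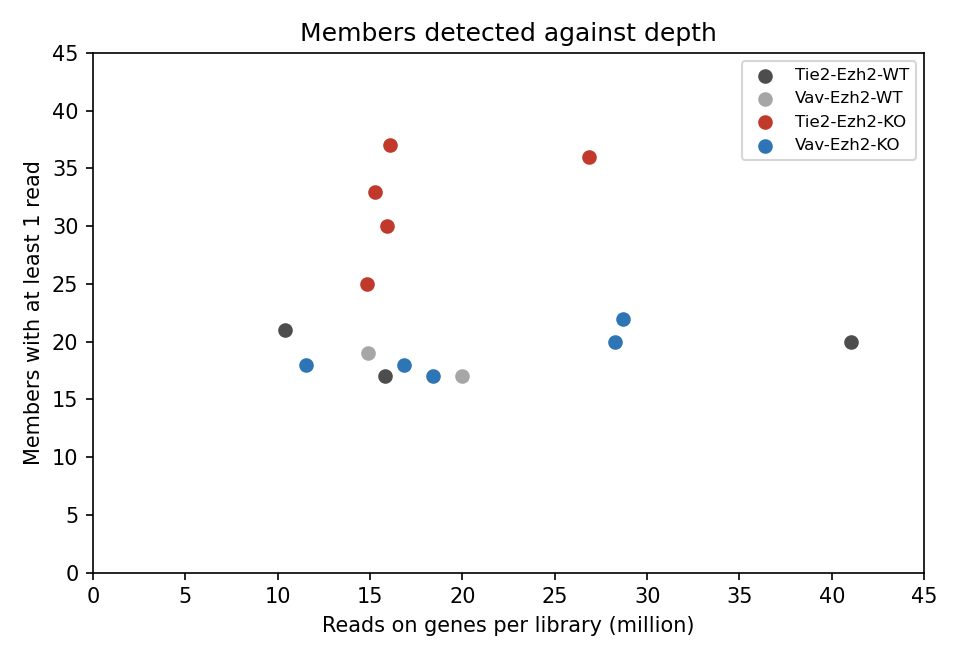
Number of the 73 members with at least 1 read in each library, against the reads on genes of that library. Each point is 1 library, coloured by genotype.

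Reads in a single genotype made up much of this difference. Of the 73 members, 25 (34.2%) had reads in Tie2-Ezh2-KO libraries and none in the other 10, against 732 (4.19%) of all genes. Of the other members, 2 had reads in Vav-Ezh2-KO EMPs alone (*Lhx9* and *Pou3f3*; 2.09% of all genes) and 3 in WT EMPs alone (*Cdx2*, *Pax7* and *Tbx20*; 2.19% of all genes). Silent genes can appear in this way in any group, so the count was also set against the members at 0 elsewhere: of 32 members at 0 in WT and Vav-Ezh2-KO EMPs, 25 (78.1%) had a read in Tie2-Ezh2-KO EMPs, against 55.9% of 1309 genes. The same share was 2 of 9 members (22.2%) for Vav-Ezh2-KO (38.7% of 941 genes) and 3 of 10 (30.0%) for WT (39.8% of 959 genes). Of the 25 members, 14 were seen in 1 library, 11 in at least 2, 5 in at least 3 (0.493% of all genes) and 2 in 4 (0.166% of all genes). None was seen in all 5. In these bulk samples, fewer cells of a type and less RNA per cell cannot be told apart, and a low level does not separate few cells from many.

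The summed level of all members, carried mostly by the Meis and Pbx genes, did not follow the number detected. As mean and SD of 5 libraries it was 49.7 ± 8.95 RPKM for Tie2-Ezh2-KO, 50.02 ± 6.03 RPKM for WT and 50.9 ± 10.97 RPKM for Vav-Ezh2-KO EMPs. The Meis and Pbx genes made up 93.6% to 96.8% of it in the WT and Vav-Ezh2-KO libraries and 84.5% to 87.8% in the Tie2-Ezh2-KO libraries. Alone they summed to 42.6 ± 7.40 RPKM for Tie2-Ezh2-KO, 47.6 ± 5.80 RPKM for WT and 48.3 ± 10.7 RPKM for Vav-Ezh2-KO EMPs. The share of the other members was thus higher in every Tie2-Ezh2-KO library than in any WT or Vav-Ezh2-KO library.

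With limma, 2 of the 31 members tested were called between Tie2-Ezh2-KO and WT EMPs, where 2.73% of 14154 genes were called. These were *Msx2* and *Tbx15*, higher in Tie2-Ezh2-KO EMPs (2.42% of genes were called higher) and without overlap with WT (3.29% of genes), and no member was called lower (0.304% of genes). Both had passed the filter of 0.2 RPKM through Tie2-Ezh2-KO libraries alone; without the filter *Msx2* was still called (limma adjusted p = 0.000608) and *Tbx15* was not (0.0999). At an unadjusted p under 0.05 there were 5 members, all higher (8.22% of genes were higher at this p). Between Vav-Ezh2-KO and WT EMPs, limma called 0 of 14 members (0.00733% of 13646 genes), limma-voom on recovered reads also called 0, and 0 members had an unadjusted p under 0.05 (7.93% of genes). The other members, among them *Msx2*, *Tbx15*, *Meis2* and *Six4*, did not exceed 0.2 RPKM in these libraries and were not among the 14. Reads of these named members in Vav-Ezh2-KO against WT EMPs were 14 against 3, 26 against 0, 29 against 2 and 4 against 36. Between the knockouts, limma called 1 of 31 members, *Msx2* (3.51% of 14120 genes), and 8 members had an unadjusted p under 0.05 (16.6% of genes).

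*Msx2* encodes a homeodomain repressor downstream of BMP signalling in limb, skull and neural crest. Its level in Tie2-Ezh2-KO replicates 7, 9, 11, 13 and 17 was 1.68, 0.938, 1.44, 0.914 and 1.18 RPKM, from 58, 31, 46, 53 and 41 reads. In WT EMPs it had 3 reads in Vav-Ezh2-WT replicate 4 (0.0932 RPKM) and 0 in the other 4 libraries. Its level in Vav-Ezh2-KO replicates 1, 9, 10, 26 and 28 was 0.0491, 0, 0.137, 0 and 0.0966 RPKM, from 3, 0, 5, 0 and 6 reads. Every Tie2-Ezh2-KO library was therefore above all 10 others, by a wide margin, and the Vav-Ezh2-KO and WT libraries overlapped near 0. Over the groups the reads per total differed 87.6-fold between Tie2-Ezh2-KO and WT (229 against 3 reads; 95% interval 29.6 to 428) and 19.1-fold between the knockouts (229 against 14 reads; 11.1 to 35.4). Between Vav-Ezh2-KO and WT EMPs, where *Msx2* was not tested, they differed 4.59-fold (95% interval 1.28 to 24.9). These intervals, and the floors given below for groups without a read, cover counting error alone, because reads copied by PCR are not independent molecules. For a member seen in few libraries, the values fix the reads up to a whole multiple, which was set by the annotated length. It exceeded 1 for 16 of the 66 members with reads, none of them seen in more than 4 libraries and none of them *Msx2*, *Tbx15* or *Tbx5*. On the log2(RPKM + 0.2) scale, which understates the change of a gene near 0, *Msx2* rose by 2.70 over WT (standard error 0.27, limma adjusted p = 9.68e-05; two-sided exact permutation p = 0.00794, the smallest that 5 against 5 libraries allow). Over Vav-Ezh2-KO EMPs it rose by 2.48 (limma adjusted p = 0.00026; exact permutation p = 0.00794).

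**Figure D2:**
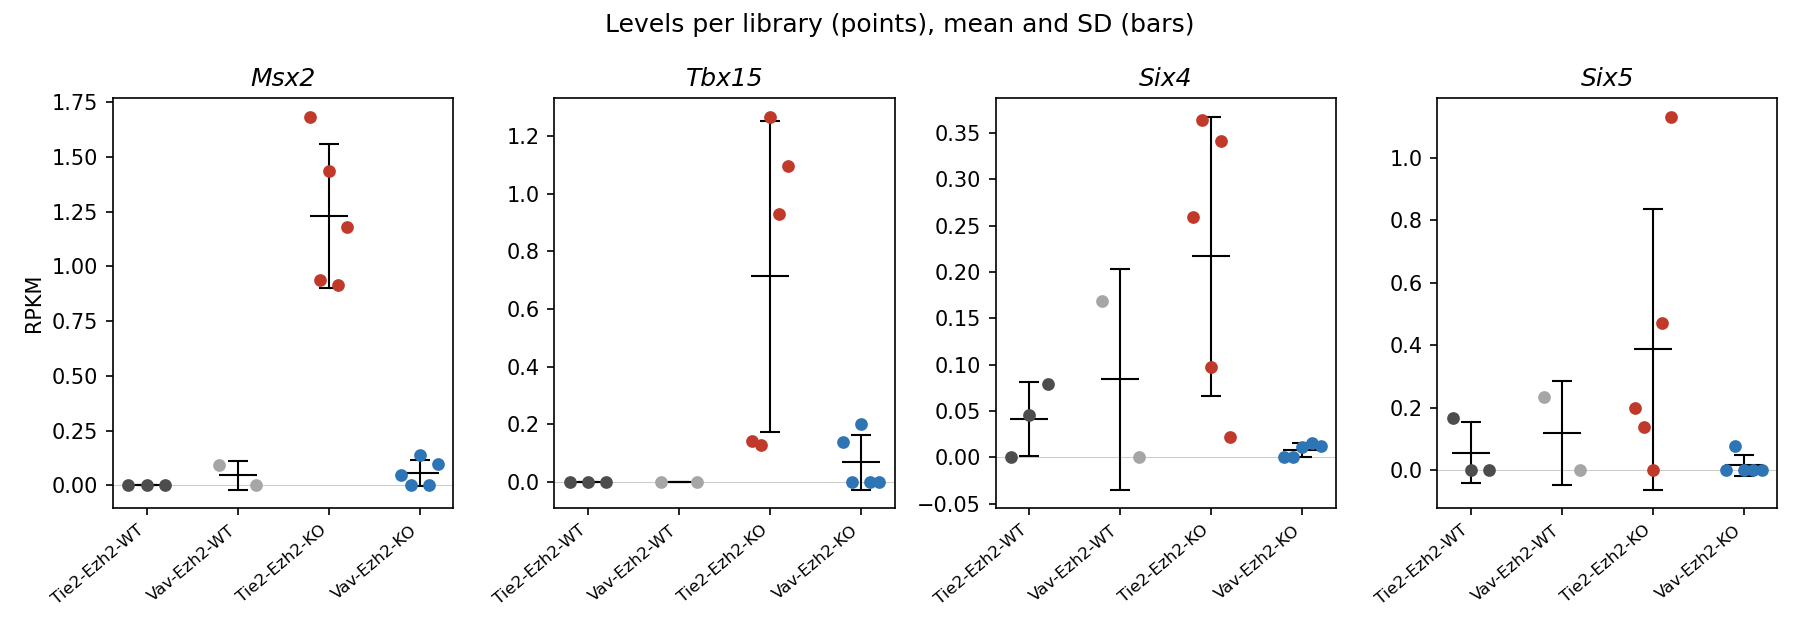
*Msx2*, *Tbx15*, *Six4* and *Six5* in RPKM in each library (points) by genotype, with the mean and SD of each group (bars). *Msx2* was above every other library in all 5 Tie2-Ezh2-KO libraries, *Tbx15* was high in 3 of them, and the scale differs between panels.

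The other Msx genes were near 0. *Msx1* had 4, 3 and 7 reads in the Tie2-Ezh2-KO, the WT and the Vav-Ezh2-KO libraries together. *Msx3*, normally a gene of the dorsal neural tube, had 17, 2 and 4 reads in Tie2-Ezh2-KO replicates 7, 9 and 17 and none elsewhere.

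Among the T-box genes, *Tbx15*, a factor of skeleton and skin patterning, was called. It had 8, 7, 67, 89 and 63 reads in Tie2-Ezh2-KO replicates 7, 9, 11, 13 and 17 (0.141, 0.128, 1.27, 0.930 and 1.10 RPKM). There was no read in any of the 5 WT libraries, and 14, 0, 12, 0 and 0 reads in Vav-Ezh2-KO replicates 1, 9, 10, 26 and 28 (0.139 RPKM in replicate 1 and 0.1996 RPKM in replicate 10). Replicates 11, 13 and 17 were thus high, while replicates 7 and 9 lay within the range of the Vav-Ezh2-KO libraries. Vav-Ezh2-KO EMPs had at least 8.53-fold the *Tbx15* reads of WT EMPs, from replicates 1 and 10 alone, and this difference was not tested. Tie2-Ezh2-KO EMPs had at least 89.5-fold the *Tbx15* reads of WT EMPs and 10.496-fold those of Vav-Ezh2-KO EMPs (234 against 26 reads; 95% interval 6.98 to 16.4). *Tbx15* rose by 1.91 over WT on the log2 scale (standard error 0.42, limma adjusted p = 0.0234; exact permutation p = 0.00794). This call was lost with a pseudocount of 1 (limma adjusted p = 0.0596), without the filter on low values (0.0999), with Tie2-Ezh2-WT as the sole control (0.139) and in 8 of the 10 fits that left out 1 library (0.0514 to 0.0637). Against Vav-Ezh2-KO EMPs the difference was 1.56 (limma adjusted p = 0.0748; exact permutation p = 0.0397).

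*Tbx5*, the T-box factor of heart and forelimb, was named after its values were seen. It had 6, 27, 6 and 4 reads in Tie2-Ezh2-KO replicates 7, 11, 13 and 17 and none in replicate 9 or in any WT or Vav-Ezh2-KO library. This was at least 16.5-fold over WT. Replicate 11 held 27 of the 43 reads behind this floor, which would be lower without that library. The highest level of *Tbx5*, 0.462 RPKM in replicate 11, stood apart. The difference to WT was 0.61 on the log2 scale (limma adjusted p = 0.520), a description of a member picked for its values. *Tbx1*, *Tbx3* and *Tbx10* likewise had reads in Tie2-Ezh2-KO EMPs alone (18, 18 and 8 reads, of which 14 of *Tbx1* were in replicate 7 and 14 of *Tbx3* in replicate 13), *Tbx3* lying 111.8 kb from *Tbx5* on chromosome 5. *Tbx4* (8 reads in Tie2-Ezh2-KO, 4 in WT) and *Tbx6* (1 in Tie2-Ezh2-KO, 4 in Vav-Ezh2-KO) were sparse. *Tbx19*, a pituitary factor, was seen in all groups with 21, 17 and 26 reads in Tie2-Ezh2-KO, WT and Vav-Ezh2-KO EMPs, of which 15 were in Tie2-Ezh2-KO replicate 11 and 19 in Vav-Ezh2-KO replicate 28, and *Tbx20* had 2 reads, both in WT.

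*Six4* and *Six5* both exceeded 0.2 RPKM, and both were named after their values were seen, so their differences are descriptions. *Six4* had 23, 31, 8, 51 and 2 reads in the Tie2-Ezh2-KO replicates, 0, 4, 18, 14 and 0 in the WT libraries (Tie2-Ezh2-WT replicates 4, 10 and 12, then Vav-Ezh2-WT replicates 4 and 6) and 0, 0, 1, 1 and 2 in the Vav-Ezh2-KO replicates. The Tie2-Ezh2-KO libraries overlapped with WT but not with Vav-Ezh2-KO EMPs, where 3.56% of genes were higher without overlap. *Six4* differed by 0.64 from WT (limma adjusted p = 0.514) and by 0.92 from Vav-Ezh2-KO EMPs (limma adjusted p = 0.107).

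*Six5* had 9, 6, 0, 36 and 52 reads in the Tie2-Ezh2-KO replicates, 15 reads over the WT libraries, all in replicate 4 of either line, and 4 reads in Vav-Ezh2-KO replicate 9. Its levels were uneven within Tie2-Ezh2-KO EMPs, from 0 in replicate 11 to 1.13 RPKM in replicate 17, and the difference was 0.85 to WT (limma adjusted p = 0.575) and 1.15 to Vav-Ezh2-KO EMPs (limma adjusted p = 0.155). *Six2* and *Six3*, neighbours on chromosome 17, had 8 and 2 reads in all 15 libraries.

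The cofactors of these families were looked at beside them. Of 25 listed cofactors (Eya, Dach, Ldb, Lmo, Ssbp and Tle genes among them), 21 were tested between Tie2-Ezh2-KO and WT EMPs and limma called 1 higher, *Lmo1*, and 0 lower (2.42% and 0.304% of all genes). Against Vav-Ezh2-KO EMPs it called 3 of 21 higher, *Lmo1*, *Tle6* and *Ldb2*, and 0 lower (3.51% of all genes in either direction). *Eya1* had a mean of 0.513 ± 0.347 RPKM (SD, n = 5) for Tie2-Ezh2-KO and 0.153 ± 0.159 RPKM for WT EMPs (limma adjusted p = 0.480), and *Eya2* of 0.849 ± 0.239 and 0.643 ± 0.289 RPKM (limma adjusted p = 0.842).

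The Meis and Pbx genes, the members most abundant in EMPs, were not called in either knockout. *Meis1* was the most abundant of them, with a median of 29.9 RPKM over the 15 libraries. It was at 23.0, 20.9, 28.6, 34.9 and 29.7 RPKM in the Tie2-Ezh2-KO replicates (7, 9, 11, 13 and 17), at 38.9, 37.0, 27.7, 35.9 and 28.8 RPKM in the WT libraries and at 29.9, 34.7, 21.7, 39.1 and 32.6 RPKM in the Vav-Ezh2-KO replicates. The groups overlapped, and the difference to WT was -0.31 on the log2 scale in Tie2-Ezh2-KO (limma adjusted p = 0.526; exact permutation p = 0.127) and -0.10 in Vav-Ezh2-KO EMPs (limma adjusted p = 0.884; exact permutation p = 0.595).

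*Pbx3* followed at a median of 5.77 RPKM, and *Pbx2* had 2.94 RPKM. For *Pbx3*, mean and SD of 5 libraries were 5.47 ± 0.515 RPKM for Tie2-Ezh2-KO, 6.00 ± 1.86 RPKM for WT and 7.61 ± 3.39 RPKM for Vav-Ezh2-KO EMPs. For *Pbx2* they were 2.97 ± 0.551, 3.02 ± 0.696 and 3.00 ± 0.576 RPKM in the same order. These levels did not differ beyond their spread.

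*Meis3* was at 3.31, 1.29, 2.50, 4.19 and 3.63 RPKM in the Tie2-Ezh2-KO replicates, at 0.378, 0.817, 2.37, 1.06 and 1.46 RPKM in the WT libraries and at 0.637, 2.50, 0.9999, 2.69 and 0.724 RPKM in the Vav-Ezh2-KO replicates. Of the Tie2-Ezh2-KO libraries, 4 were above all WT libraries and replicate 9 was not. The difference to WT was 1.25 (standard error 0.40, limma adjusted p = 0.146; exact permutation p = 0.0317), and it passed with array weights (limma adjusted p = 0.0347) and without Tie2-Ezh2-KO replicate 9 (0.0499). *Pbx4* had a mean of 1.69 ± 0.637 RPKM (SD, n = 5) for Tie2-Ezh2-KO, 1.62 ± 0.569 RPKM for Vav-Ezh2-KO and 1.07 ± 0.5996 RPKM for WT EMPs (limma adjusted p = 0.670 and 0.694 for the knockouts against WT). *Meis2* had 33, 2 and 29 reads in Tie2-Ezh2-KO, WT and Vav-Ezh2-KO EMPs, of which 25 were in Tie2-Ezh2-KO replicate 11 (limma adjusted p = 0.834 against WT).

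**Figure D3:**
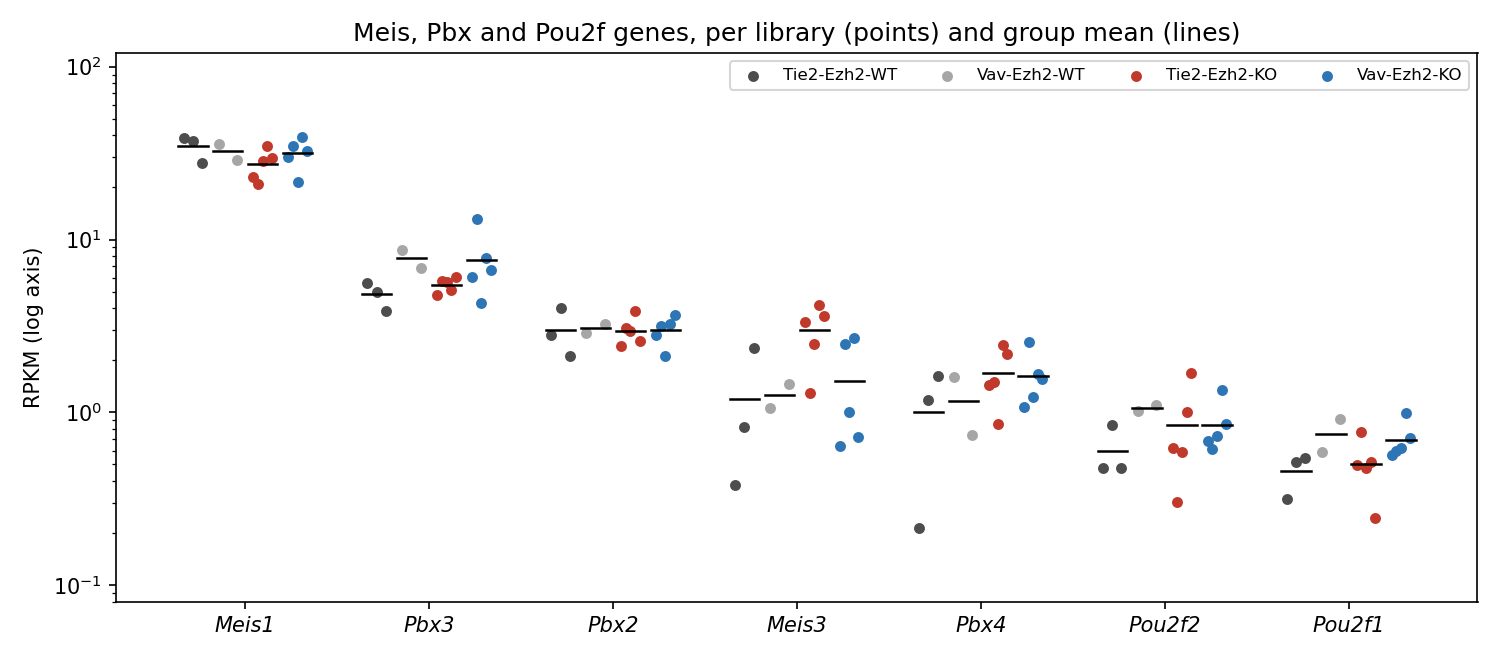
Meis, Pbx and Pou2f genes in RPKM on a log axis, in each library (points) with the mean of each group (lines). The Tie2-Ezh2-KO libraries overlap with the WT libraries for every gene shown.

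*Pou2f1* and *Pou2f2*, which bind the octamer motif and are known in lymphoid cells, had means of 0.501 ± 0.185 and 0.841 ± 0.533 RPKM over the Tie2-Ezh2-KO libraries (SD of 5). Over the WT libraries their means were 0.577 ± 0.219 and 0.784 ± 0.297 RPKM (SD of 5; limma adjusted p = 0.954 and 0.999). *Pou2f1* shares exon sequence with *Cd247* on the other strand, and no strand is stated for the libraries, so the reads of the shared part cannot be told apart. The same holds for *Nkx6-2* and *Inpp5a* and for *Pax9* and *Slc25a21*, and *Pbx2* overlaps *Gpsm3* on the same strand. *Pou3f4*, a brain and ear factor, had 15 and 25 reads in Tie2-Ezh2-KO replicates 13 and 17 and none elsewhere. *Pou3f1* and *Pou6f1* had 5 and 8 reads, again in Tie2-Ezh2-KO EMPs alone, and *Pou3f3* had 5 reads in Vav-Ezh2-KO replicate 9. *Pou4f1* (25, 10 and 8 reads in Tie2-Ezh2-KO, WT and Vav-Ezh2-KO EMPs), *Pou5f2* (8, 7 and 15 reads) and *Pou3f2* (2, 1 and 1) were scattered over all groups.

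Among the Pax and Lhx genes, *Pax8* and *Lhx6* were the most abundant. *Pax8*, a factor of thyroid and kidney, was at 0.224, 0.518, 0.668, 1.03 and 0.590 RPKM in the Tie2-Ezh2-KO replicates, at 0.304, 0.400, 0.232, 0.213 and 0.139 RPKM in the WT libraries and at 0.280, 0.258, 0.0704, 0.206 and 0.221 RPKM in the Vav-Ezh2-KO replicates. Replicate 7 lay among the WT and Vav-Ezh2-KO libraries and the other 4 Tie2-Ezh2-KO libraries above them. The difference was 0.76 to WT (limma adjusted p = 0.344; exact permutation p = 0.0317) and 0.93 to Vav-Ezh2-KO EMPs (limma adjusted p = 0.130; exact permutation p = 0.0238). *Lhx6*, a factor of cortical interneurons, had a mean of 0.304 ± 0.248 RPKM over the Tie2-Ezh2-KO libraries and 0.149 ± 0.101 RPKM over the WT libraries (SD of 5; limma adjusted p = 0.843). *Pax9* had 24 and 2 reads in Tie2-Ezh2-KO replicates 7 and 17, and *Lhx1* had 9 reads in replicate 13. *Pax6* had 17, 9 and 1 reads in Vav-Ezh2-KO, WT and Tie2-Ezh2-KO EMPs, 12 of the 17 in Vav-Ezh2-KO replicate 1, and *Pax3*, *Pax7*, *Lhx5* and *Lhx9* had 4, 2, 3 and 2 reads in all 15 libraries, none of them in Tie2-Ezh2-KO EMPs.

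The remaining families were represented by scattered reads. *Nkx2-3*, known from spleen and gut vessels, was present in all groups with 63, 35 and 25 reads in Tie2-Ezh2-KO, WT and Vav-Ezh2-KO EMPs, but 42 of the 63 were in Tie2-Ezh2-KO replicate 13. *Nkx1-2* (30 reads, 18 of them in replicate 7), *Nkx2-2* (5) and *Nkx2-2as* (3), a transcript on the other strand at *Nkx2-2*, had reads in Tie2-Ezh2-KO EMPs alone. *Nkx6-1* and *Nkx6-2* had 12 and 17 reads in Tie2-Ezh2-KO, 2 and 1 in WT and none in Vav-Ezh2-KO EMPs, and *Nkx2-1* and *Nkx2-9* had 11 and 2 reads in all 15 libraries. *Otx2*, which specifies the forebrain, had 30 reads in Tie2-Ezh2-KO replicate 11 (0.587 RPKM) and none in any other library. *Otx1* had 5 reads and *Pitx1* had 1 in all 15 libraries. All 3 Dlx genes appeared in 1 Tie2-Ezh2-KO library each: *Dlx1* with 4 reads in replicate 7, *Dlx2* with 2 in replicate 9 and *Dlx4* with 10 in replicate 17. *Irx5* had 22 reads in Tie2-Ezh2-KO (8 in replicate 9 and 14 in replicate 13), 2 in WT and 1 in Vav-Ezh2-KO EMPs, while *Irx2* and *Irx3* had 2 and 1, in Tie2-Ezh2-KO EMPs. *Barx1* had 10 reads in Tie2-Ezh2-KO replicate 13 and 1 in Tie2-Ezh2-WT replicate 4. *Emx2* had 4 reads in Tie2-Ezh2-KO replicate 9, and its antisense neighbour *Emx2os* 19, 11 and 20 in Tie2-Ezh2-KO, WT and Vav-Ezh2-KO EMPs; without strand, reads shared by the pair cannot be told apart. The Cdx genes, which act upstream of Hox genes in embryonic blood, had 3 reads between them, 2 of *Cdx1* in Tie2-Ezh2-KO replicate 17 and 1 of *Cdx2* in Tie2-Ezh2-WT replicate 4, too few to show a difference at this depth.

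The WT libraries of the 2 lines were also compared with each other, 3 Tie2-Ezh2-WT against 2 Vav-Ezh2-WT. Limma called 0 of 13 members (0.153% of 13100 genes) and limma-voom also called 0, and 1 member, *Pbx3*, had an unadjusted p under 0.05 (8.92% of genes). *Pbx3* was at 5.62, 4.94 and 3.87 RPKM in Tie2-Ezh2-WT and at 8.70 and 6.87 RPKM in Vav-Ezh2-WT EMPs (limma adjusted p = 0.506; exact permutation p = 0.1, the smallest that 3 against 2 libraries allow). Groups this small often do not overlap: 2 members were higher in Tie2-Ezh2-WT EMPs without overlap (9.93% of genes) and 4 were lower (16.0% of genes).

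When each knockout was set against its own WT libraries, the difference between the knockout effects was called for 1 of 31 members, *Msx2* (0.181% of 14394 genes), and 4 members had an unadjusted p under 0.05 (6.54% of genes). For *Msx2* it was 2.76 on the log2 scale (standard error 0.43, limma adjusted p = 0.0156). Without Vav-Ezh2-WT replicate 4, the WT library with reads of *Msx2*, the difference was 2.48 and no longer passed (limma adjusted p = 0.0823). *Tbx15* (1.56, limma adjusted p = 0.714), *Six4* (1.10, 0.684) and *Nkx2-3* (1.52, 0.658) did not pass in this comparison.

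Related gene groups were read beside the members. Of 96 other homeobox genes listed, 61 were in the table and 40 were tested between Tie2-Ezh2-KO and WT EMPs. Limma called 3 higher, *Isl1*, *Lbx2* and *Esx1*, and 0 lower (2.42% and 0.304% of all genes, also for the lists that follow). *Esx1*, a placental homeobox gene, was at 9.02, 8.96, 6.37, 6.80 and 4.0005 RPKM in the Tie2-Ezh2-KO replicates and at 0.180 RPKM or less in the WT libraries (limma adjusted p = 9.74e-07). Of the 23 Hox genes listed there, 13 were tested and 1 was called, *Hoxb13*, which was higher; of the 46 Sox and Fox genes 25 were tested and limma called 0. Of 4 other T-box genes 2 were tested and limma called 0, and of 12 PRC2 genes 1 was called lower, *Ezh2*. Against Vav-Ezh2-KO in place of WT, limma called the same numbers higher in the first 2 lists, 3 and 1, and 0 Sox and Fox genes, and it called 2 PRC2 genes lower, *Ezh2* and *Rbbp4*. Some genes of these lists were tested because of Tie2-Ezh2-KO libraries alone, as noted for the members.

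Markers of other cell types were read in the same libraries, because several of these factors are genes of those cells. Markers of epithelium and trophoblast (11 of 12 in the table) summed to 59.5, 37.6, 34.0, 31.9 and 41.7 RPKM in the Tie2-Ezh2-KO replicates (7, 9, 11, 13 and 17), to 22.5, 16.9, 15.3, 14.4 and 16.0 RPKM in the WT libraries and to 18.2, 15.9, 16.2, 19.7 and 16.7 RPKM in the Vav-Ezh2-KO replicates. *Krt18* was the most abundant of them in every library, and *Krt18*, *Epcam* and *Ascl2* were called higher in Tie2-Ezh2-KO than in WT EMPs and than in Vav-Ezh2-KO EMPs. The defining genes *Gcm1* and *Elf5* were at 0 in every Tie2-Ezh2-KO and every WT library. *Tfap2c* was at 0.184, 0.256 and 0.0810 RPKM in replicates 7, 9 and 17 of Tie2-Ezh2-KO EMPs, *Cdh1* and *Prl3d1* were at 0.441 and 0.143 RPKM in replicate 7, and all 3 were at 0 in the other libraries. Neural markers (4 of 13 in the table) summed to 3.77, 2.57, 3.30, 5.60 and 3.29 RPKM in the Tie2-Ezh2-KO replicates, to 0.631, 1.33, 1.24, 1.87 and 1.79 RPKM in the WT libraries and to 0.667, 0.954, 1.07, 0.832 and 0.595 RPKM in the Vav-Ezh2-KO replicates. *Tubb3* was the most abundant of them in the Tie2-Ezh2-KO libraries and was called higher there than in WT and in Vav-Ezh2-KO EMPs. *Neurod1* was at 0.0755 and 0.424 RPKM in replicates 7 and 17 of Tie2-Ezh2-KO EMPs and at 0 in the other 13 libraries.

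Primitive erythroid markers (10 of 10) summed to 618, 739, 1117, 413 and 491 RPKM in the Tie2-Ezh2-KO replicates, to 308, 250.2, 346, 212 and 253 RPKM in the WT libraries and to 218, 249, 229.8, 276 and 326 RPKM in the Vav-Ezh2-KO replicates. *Klf1*, *Hba-x* or *Hbb-bh1* was the most abundant of them, and *Hba-x* (6.33 on the log2 scale, limma adjusted p = 8.88e-05 against WT), *Tspan33* and *Hbb-bh1* were called higher in Tie2-Ezh2-KO than in WT and in Vav-Ezh2-KO EMPs. *Slc4a1* was at 0.0965 and 0.386 RPKM in replicates 7 and 11 of Tie2-Ezh2-KO EMPs and at 0 in the other libraries. The sum of visceral endoderm markers (12 of 12) was highest in 2 libraries, Tie2-Ezh2-KO replicate 7 with 279 RPKM, led by *Apoa1*, and Tie2-Ezh2-WT replicate 4 with 201 RPKM, led by *Trf*; the other 13 libraries had 10.6 to 35.7 RPKM, with *Foxa2* at 0 in all but Tie2-Ezh2-KO replicate 11. *Amn* of this list was at 1.52 to 4.66 RPKM in the 5 Tie2-Ezh2-KO libraries and at 0.798 RPKM or less in the other 10, and was called higher against WT (3.01 on the log2 scale, limma adjusted p = 0.00155) and against Vav-Ezh2-KO EMPs (limma adjusted p = 0.000149). Mesenchyme markers (16 of 16), of interest for *Msx2* and *Tbx15*, summed to 4.04 ± 0.313 RPKM for Tie2-Ezh2-KO, 3.27 ± 0.737 RPKM for WT and 2.80 ± 0.890 RPKM for Vav-Ezh2-KO EMPs (mean and SD of 5), with *Pdgfrb* or *Postn* the most abundant in the Tie2-Ezh2-KO libraries. Limma called 1 of the 10 tested. *Col5a1* was at 0.288 to 0.728 RPKM in the Tie2-Ezh2-KO libraries and at 0.0493 to 0.224 RPKM in the WT libraries and was called higher (1.19 on the log2 scale, limma adjusted p = 0.0325); it was not called against Vav-Ezh2-KO EMPs (limma adjusted p = 0.208). *Pdgfra* was at 0 in all Tie2-Ezh2-KO and WT libraries, *Dcn* was at 0 in 5 and 4 and *Col3a1* in 4 and 4 libraries of the same groups. The sums of other lists did not differ from WT beyond their spread (mean and SD of 5). Endothelial markers (13 of 14), led by *Egfl7* in every library, summed to 179 ± 7.59 RPKM for Tie2-Ezh2-KO, 176 ± 13.7 RPKM for WT and 154 ± 16.5 RPKM for Vav-Ezh2-KO EMPs, with 0 called. *Egfl7* made up most of this sum and hardly changed against WT (-0.018 on the log2 scale). The median log2 change of the 13 markers was 0.36 against WT, where all genes had 0.011. Against Vav-Ezh2-KO EMPs it was 0.52, where all genes had 0.041. *Pecam1* (-0.62) and *Tie1* (-0.30) were lower than in WT. Macrophage markers (10 of 10) were led by *Cd68*, with *C1qa* at 0 in all 15 libraries. They summed to 17.96 ± 4.78, 21.7 ± 7.16 and 25.1 ± 1.87 RPKM in Tie2-Ezh2-KO, WT and Vav-Ezh2-KO EMPs. Of these, 0 were called against WT, and *Cd68* was called lower than in Vav-Ezh2-KO EMPs. Megakaryocyte markers (10 of 10) summed to 238 ± 61.9, 276 ± 105 and 268 ± 65.8 RPKM, with *Gp1ba* called lower than in WT and *Treml1* lower than in Vav-Ezh2-KO EMPs. The part of these markers in the levels of *Msx2*, *Tbx15* and the other members was not tested.

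Vertebrate PRC2 is known to act mostly at promoters rich in CG pairs. The promoter of *Msx2*, the member with the clearest change, is printed with its CG pairs marked, beside that of *Meis1*, the most abundant member. Whether PRC2 acts at either promoter in EMPs was not tested. Each runs over 300 bases, from 250 before to 50 after the start of transcription, 5′ to 3′, with every CG in capitals (RefSeq, GRCm38.p6; *Msx2* at chr13:53472731-53473030 and *Meis1* at chr11:19018920-19019219, both on the - strand). For *Meis1*, whose annotated gene begins 682 bases further upstream, this start is not the outermost one. The letters CG occur in 94.2% of 27025 promoters of this length, with a median of 7 pairs. *Msx2* has 22 pairs, a number reached by 23.3% of promoters, and *Meis1* has 15, reached by 35.2%, so neither is unusual by this count. Promoters were at hand for 52 of the 73 members (71.2%), and no comparison over members was made.
Msx2: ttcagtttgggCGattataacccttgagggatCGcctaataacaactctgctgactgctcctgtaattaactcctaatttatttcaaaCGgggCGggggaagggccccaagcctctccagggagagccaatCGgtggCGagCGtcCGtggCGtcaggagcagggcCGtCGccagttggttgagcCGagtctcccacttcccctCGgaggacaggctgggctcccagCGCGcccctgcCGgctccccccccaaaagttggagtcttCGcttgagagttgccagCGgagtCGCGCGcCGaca
Meis1: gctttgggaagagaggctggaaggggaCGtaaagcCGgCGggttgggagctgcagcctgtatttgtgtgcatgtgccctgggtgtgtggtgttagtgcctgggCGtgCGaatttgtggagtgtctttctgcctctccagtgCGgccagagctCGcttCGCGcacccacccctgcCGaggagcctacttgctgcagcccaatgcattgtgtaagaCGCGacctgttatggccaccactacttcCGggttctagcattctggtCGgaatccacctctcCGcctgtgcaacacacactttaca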

How the data were processed

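RNA-seq of EMPs was analysed; other data of the study were not analysed here. Per the labels, each library came from 500 cells, with 16 PCR cycles and single-end reads of 75 bp; the study's text gives another number of cells. Per the submitters' processing notes, reads were aligned with TopHat2 2.0.13 to GRCm38/mm10 and counted with featureCounts, and the authors deposited RPKM on a linear scale. Reads per gene and library (10407398 to 41025074 in total, median 16091836) were recovered from the steps between low RPKM values, with a multiple set by annotated length for 602 genes; 1 read of a 2 kb transcript was 0.0122 to 0.0480 RPKM.

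Differences were tested with limma 3.58.1 in R 4.3.3 (lmFit, eBayes with trend) on log2(RPKM + 0.2), for every gene that exceeded 0.2 RPKM in any library compared; p was adjusted over all genes tested (Benjamini-Hochberg) with a threshold of 0.05. The code was tested on simulated data, in which only genes with many reads were changed. It does not show how well a change of a gene near 0 is found. Single members were also compared by exact permutation (two-sided), using all 252 divisions of 5 against 5 libraries. A difference between knockout effects was tested over all 15 libraries in 4 groups. Fold ratios are recovered reads per total, with 95% binomial intervals and a floor of 3 reads for a group without any.

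Members with values were named by rule: those called, the 10 with the highest median RPKM, those of Meis, Pbx and Cdx and others known in blood, and those at 0. *Six4*, *Six5*, *Tbx5*, *Nkx2-3*, *Pax6* and the members given by reads alone were chosen after their values were seen. The members and lists were chosen with earlier results of these data known. *Pax5* and *Tbx21* were not analysed here, and some members are counted but not reported here. The labels name no batch, and none was fitted. The study states that these libraries came from more than 1 independent experiment. The labels do not say which library belongs to which, so the tests treat the libraries of a group as alike in this. Alternatives were other pseudocounts (1 and 0.05), filters, scalings, weights, controls and tools, and leaving out each library.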

Additional observations from a re-analysis of the deposited data

Results flagged for a closer look

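Among 57 groups of 5 libraries (19 members in WT and in each knockout), 8 had a single library far from the other 4. A chance rate of about 1 in 20 groups does not hold near 0, where a few reads in a single library are enough for this. Some of the members were also chosen after their values were seen, so the 8 cannot be judged against that rate.

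In 5 cases the library was the highest and the other 4 were at 0: *Msx2* in Vav-Ezh2-WT replicate 4 (0.0932 RPKM, 3 reads), *Cdx1* in Tie2-Ezh2-KO replicate 17 (0.0710 RPKM, 2 reads), *Cdx2* in Tie2-Ezh2-WT replicate 4 (0.0448 RPKM, 1 read), *Six5* in Vav-Ezh2-KO replicate 9 (0.0761 RPKM, 4 reads) and *Pax6* in Tie2-Ezh2-KO replicate 9 (0.0178 RPKM, 1 read). Tie2-Ezh2-KO replicate 11 was the highest for *Meis2* (0.320 RPKM, 25 reads; the others 0 to 0.0472 RPKM) and for *Tbx5* (0.462 RPKM, 27 reads; the others 0 to 0.0955 RPKM). *Lhx6* was lowest in Vav-Ezh2-KO replicate 1 (0.0792 RPKM, 8 reads; the others 0.146 to 0.167 RPKM).

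*Msx2* also differed between the knockouts when each was set against its own WT libraries, by 2.76 on the log2 scale (limma adjusted p = 0.0156 for this difference). This call was lost without Vav-Ezh2-WT replicate 4, the library flagged above for *Msx2*.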

How the results depend on the processing

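*Msx2* kept its direction and its call in all 22 alternatives against WT (limma adjusted p 9.5e-06 to 0.00127) and in all 22 against Vav-Ezh2-KO EMPs (4.05e-05 to 0.0156). No member was called between Vav-Ezh2-KO and WT or between the WT groups in any alternative.

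The number of members called between Tie2-Ezh2-KO and WT was 2, and 1 with a pseudocount of 1, without the filter, with a mean above 0.5 RPKM (*Tbx15* not tested) or against the corresponding WT; it was 1 to 3 with 1 library left out. Between the knockouts it was 1, and 2 with array weights, with all 15 libraries in 1 fit or with limma-voom (1 to 2 with 1 library left out). In the test of knockout by line it was 1 (0 to 1 with 1 library left out).

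Over all genes, 386 were called between Tie2-Ezh2-KO and WT EMPs, and 187 against the corresponding WT. Between Vav-Ezh2-KO and WT it was 1 gene, and 2 with a common median or the corresponding WT (1 to 2 with 1 library left out). Between the knockouts it was 495, and 304 without the filter, 765 with array weights and 26 by the interaction (320 to 969 with 1 library left out); 75.2% of these genes were higher in Tie2-Ezh2-KO EMPs, and 63.6% after quantile normalization. Between the WT groups it was 20, and 6 without the filter, 0 without trend, 52 with array weights, 2 with all 15 libraries in 1 fit and 31 with limma-voom (0 to 99 with 1 library left out). In the test of knockout by line it was 26, and 15 without the filter (8 to 32 with 1 library left out). Where leaving out a library left 1 in a group, it was assumed to vary like the other groups. The causes were not tested.

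Of 28 changes of single members given in the text, 18 kept direction and call in every alternative. Changes near 0 against WT in Tie2-Ezh2-KO EMPs turned their sign: *Pbx3* (0.19 against the corresponding WT; -0.22 to 0.061 with 1 library left out), *Pbx2* (0.081 with limma-voom, 0.019 against the corresponding WT; -0.12 to 0.093), *Pou2f2* (0.017 with a pseudocount of 1, 0.12 with array weights, 0.083 with limma-voom, 0.27 against the corresponding WT; -0.26 to 0.22) and *Pou2f1* (0.068 against the corresponding WT; -0.28 to 0.0073). *Meis1* in Vav-Ezh2-KO EMPs had -0.19 to 0.024 with 1 library left out. Of 42 further changes of these members, given in the text without a value or not at all, 24 turned their sign in at least 1 alternative; none of these exceeded 0.396 in size or was called (limma adjusted p 0.5 or more). *Tbx15* against Vav-Ezh2-KO EMPs passed with array weights (limma adjusted p = 0.0341), with all 15 libraries in 1 fit (0.0336) and without Tie2-Ezh2-KO replicate 7 or 9 (0.0423 and 0.0192). *Six4*, chosen after its values were seen, passed in the same comparison with limma-voom on recovered reads (adjusted p = 0.0386) and, with limma, when replicate 17 of Tie2-Ezh2-KO was left out (adjusted p = 0.0462); this is a description.

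The alternatives for the difference between knockout effects were chosen after seeing the data. No paired analysis was possible because the groups compared share at most 1 replicate number. The 35 members with reads under 0.2 RPKM were not tested; they had at most 14 reads in any library, and a member at 0 is not shown to be absent.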
